A study of Mus musculus with 10 samples.

Results

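Radial glia are the stem cells of the developing cortex, and the 10 genes described here are commonly used to mark them: Pax6, Sox2, Nes, Vim, Fabp7, Slc1a3, Prom1, Hopx, Tnc and Gfap. They were taken by name, and all 10 were found among the 21225 probe sets of the arrays, each probe set standing for 1 gene. Forebrains of wild-type embryos were taken on embryonic day 15.5 (E15.5), and the RNA of each was hybridized to 1 Affymetrix Mouse Gene 1.0 ST array. The 2 groups were 5 embryos from dams on pelleted chow (Teklad 2918, animals 05, 07, 09, 11 and 15) and 5 from dams on powdered chow (Bioserv F3197, a purified diet, animals 87, 88, 108, 111 and 115). In both groups the dams were C57Bl/6J females mated to Ts1Cje males, which carry a partial trisomy used to model Down syndrome, and only pups without it were measured. Dam and sire ate the same chow from the first breeding on, and each embryo came from a litter of its own, so that the 5 arrays of a diet were biological replicates. The diets differed in many components at once, and the labels name no slide, scan date or sex, so that array batch and diet cannot be told apart.

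Radial glia line the ventricle and send a long fibre to the surface of the brain. They divide at the ventricle, give rise to neurons either directly or through intermediate progenitors, and serve as the track along which young neurons migrate. Late in gestation many of them turn into astrocytes. Their markers fall into several kinds. Pax6 and Sox2 are transcription factors that hold the progenitor state. Nes, Vim and Gfap encode intermediate filaments of the fibre, Fabp7 a fatty acid binding protein and Slc1a3 the glutamate transporter GLAST. Prom1 is a membrane protein of apical protrusions, Tnc an extracellular matrix glycoprotein, and Hopx a homeodomain protein without DNA binding that marks outer radial glia in human cortex. None of these genes is expressed in radial glia alone. Vim is also strong in meninges and vessel walls, and Sox2, Slc1a3, Fabp7, Tnc and Gfap continue in astrocytes. In RNA of whole forebrain, fewer cells of a type and less RNA per cell cannot be told apart.

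The promoters of Pax6, Vim, Fabp7 and Tnc are printed because these were the 4 markers that differed between the diets with no overlap of their embryos. Each sequence runs 5′ to 3′ on the strand of its gene, from 250 bases before the start site to 10 bases after it, as annotated by RefSeq on GRCm38.p6, and capitals mark the motif matches described next. The Pax6 promoter lies at chr2:105668646-105668905 on the plus strand, that of Vim at chr2:13574061-13574320 on the plus strand, that of Fabp7 at chr10:57784673-57784932 on the plus strand, and that of Tnc at chr4:64047006-64047265 on the minus strand.
Pax6: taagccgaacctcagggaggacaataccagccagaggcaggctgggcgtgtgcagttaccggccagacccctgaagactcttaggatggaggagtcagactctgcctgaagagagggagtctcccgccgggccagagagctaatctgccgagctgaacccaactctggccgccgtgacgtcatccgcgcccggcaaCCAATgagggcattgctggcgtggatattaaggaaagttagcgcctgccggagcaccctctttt
Vim: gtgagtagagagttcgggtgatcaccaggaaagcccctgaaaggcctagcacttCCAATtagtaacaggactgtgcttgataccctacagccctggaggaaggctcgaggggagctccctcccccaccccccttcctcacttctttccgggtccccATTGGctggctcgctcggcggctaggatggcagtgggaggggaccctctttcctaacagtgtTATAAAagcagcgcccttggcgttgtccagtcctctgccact
Fabp7: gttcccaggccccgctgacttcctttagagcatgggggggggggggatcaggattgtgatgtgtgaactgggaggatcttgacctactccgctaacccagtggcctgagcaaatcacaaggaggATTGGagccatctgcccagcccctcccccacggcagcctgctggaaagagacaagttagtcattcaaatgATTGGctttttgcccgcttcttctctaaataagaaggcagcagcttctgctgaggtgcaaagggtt
Tnc: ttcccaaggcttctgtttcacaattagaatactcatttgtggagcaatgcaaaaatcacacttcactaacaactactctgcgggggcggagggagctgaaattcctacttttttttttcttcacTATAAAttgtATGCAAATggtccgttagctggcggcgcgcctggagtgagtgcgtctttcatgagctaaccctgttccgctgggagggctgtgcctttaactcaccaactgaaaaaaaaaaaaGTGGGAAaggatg

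All 10 markers matched a RefSeq promoter window of 300 bases, with 250 bases before and 50 after the start site, and for Prom1 the window was not at the annotated 5′ end of the gene. The windows were searched on both strands for the letters CCAAT (the CCAAT box, whose reverse letters ATTGG share TTGG with the NFI motif), TATAAA (the TATA box), ATGCAAAT (the octamer of POU factors), GTGGGAA (the site of RBPJ, the DNA-binding partner of Notch) and TTGGCA (1 arm of the site of NFI factors). CCAAT stood in 7 of 10 markers, against 37.4% of all 32851 windows. Vim held it at positions -196 and -94 from the start site and Fabp7 at -126 and -56, while Pax6 held it once, at -54. TATAAA stood in 3 of 10 markers, against 13.6% of windows, with Vim at -32, Tnc at -126 and Slc1a3 at -161. The Tnc window alone among the 10 held the octamer, at -116, which 1.74% of windows held. It also alone held GTGGGAA, at -3, found in 6.38% of windows. TTGGCA was in 0 of 10, against 14.1% of windows. The CCAAT letters were thus held by Pax6 and Prom1, which were higher on powdered chow, by Vim, Fabp7 and Hopx, which were lower, and by Sox2 and Slc1a3, which were not called. A match of letters is a description and says nothing about binding.

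The question put to the data was how the expression of radial glia markers differed between embryos exposed to the 2 chows. The set was split. Pax6 and Prom1 were higher on powdered chow, Vim, Fabp7, Tnc, Hopx and Gfap were lower, and Sox2, Nes and Slc1a3 were not called. All 21225 probe sets were tested with limma, the p-values were adjusted over all of them by Benjamini-Hochberg, and a gene was called at an adjusted p under 0.05. Differences are log2 values of powdered minus pelleted chow. At this threshold 21.2% of all probe sets were higher and 21.8% lower on powdered chow, together 43.1%, against 2 higher and 5 lower of the 10 markers. The share of markers higher, 20%, was about that of all probe sets, and the share lower was 50%. The differences were small. The median size was 0.22 on the log2 scale among the markers and 0.17 among all probe sets, and the signed medians were -0.18 and -0.02. The study's methods set stricter limits, with the fold change above 1.5, the raw p below 0.001 and the adjusted p below 0.01, and by these 0 of the 10 markers and 8.27% of all probe sets were differentially expressed. Diets did not overlap, meaning that all 5 powdered values lay on one side of all 5 pelleted values, in 4 of 10 markers and in 32.6% of all probe sets.

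**Figure D1:**
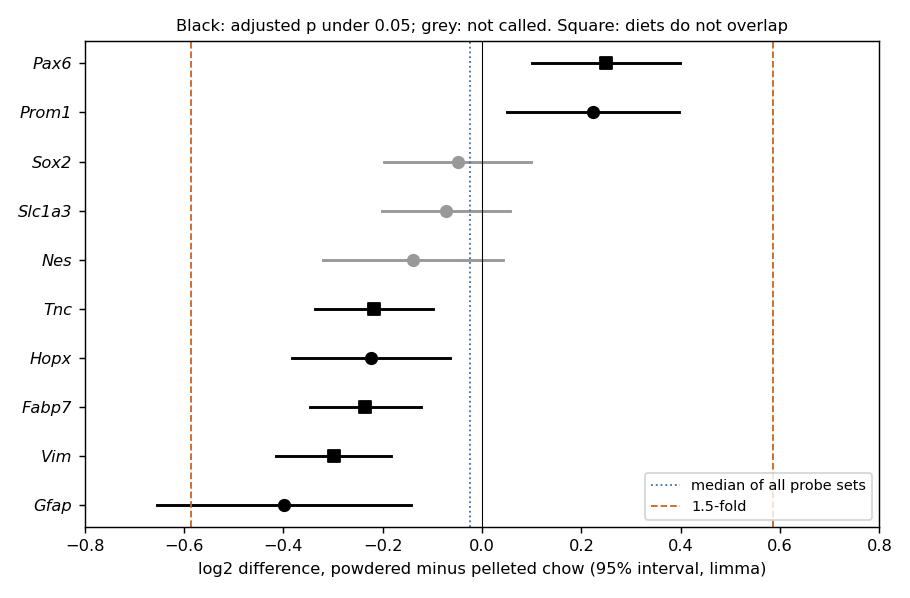
Log2 difference of each radial glia marker gene, powdered minus pelleted chow, with its 95% interval from limma (5 embryos per diet). Black marks genes with an adjusted p under 0.05, grey those not called, and squares genes whose diets do not overlap. All 10 points lie inside the dashed lines at a 1.5-fold change, 2 of the 7 called genes to the right of 0 and 5 to the left.

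Pax6, which sets the dorsal identity of cortical progenitors, was the transcription factor that differed. On pelleted chow its log2 values were 8.91, 8.98, 8.67, 8.76 and 8.92, and on powdered chow 9.11, 9.02, 9.08, 9.05 and 9.22. Every powdered embryo was above every pelleted one, though the lowest powdered and highest pelleted values lay only 0.03 apart. The mean rose from 8.85 ± 0.13 to 9.10 ± 0.08 (SD, n = 5 each), a log2 difference of 0.25 (SE 0.07), or 1.19-fold, with a limma adjusted p of 0.0102. Sox2, needed for the self-renewal of neural stem cells, gave 10.70, 10.75, 10.57, 10.44 and 10.56 on pelleted chow and 10.62, 10.59, 10.41, 10.61 and 10.53 on powdered chow. The Sox2 values of the diets were interleaved, with a difference of -0.05 (95% interval -0.20 to 0.10) and a limma adjusted p of 0.600. The 2 highest pelleted values were those of animals 05 and 07.

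Among the intermediate filaments of the radial fibre, Vim gave the lowest p-value of the 10 markers. Vimentin forms the filaments into which nestin is built. The Vim log2 values were 12.34, 12.43, 12.31, 12.31 and 12.33 on pelleted chow and 12.12, 12.12, 12.01, 11.94 and 12.04 on powdered chow. The diets were separated by a gap of 0.19, wider than the range of the 5 pelleted (0.12) or the 5 powdered embryos (0.17). The mean fell from 12.34 ± 0.05 to 12.04 ± 0.07 (SD, n = 5 each), a difference of -0.30 (SE 0.05), or 1.23-fold lower, with a limma adjusted p of 5.31e-04. Nes, the filament protein most used to name neural progenitors, gave 8.97, 9.09, 8.79, 9.18 and 8.94 on pelleted chow and 9.03, 8.93, 8.81, 8.66 and 8.83 on powdered chow. The Nes values overlapped broadly. The difference was -0.14, and its 95% interval, -0.32 to 0.04, included 0 (limma adjusted p = 0.206).

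Gfap, the filament of mature astrocytes, had the widest spread of the markers, with an SD of 0.28 on pelleted chow. Its log2 values were 6.71, 6.74, 7.16, 7.29 and 7.25 on pelleted chow and 6.69, 6.78, 6.61, 6.65 and 6.43 on powdered chow. Pelleted animals 05 and 07 were within the powdered range, and the other 3 pelleted embryos were above it. The difference was -0.40 (SE 0.12), 1.32-fold lower on powdered chow, with a limma adjusted p of 0.0151. The call was lost under the methods' t-test (adjusted p = 0.0526). The Gfap signal was dim. It was below the median of its array on all 10 arrays and in 1 embryo only 0.01 above the lower quartile, which lay between 6.33 and 6.53 over the arrays.

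**Figure D2:**
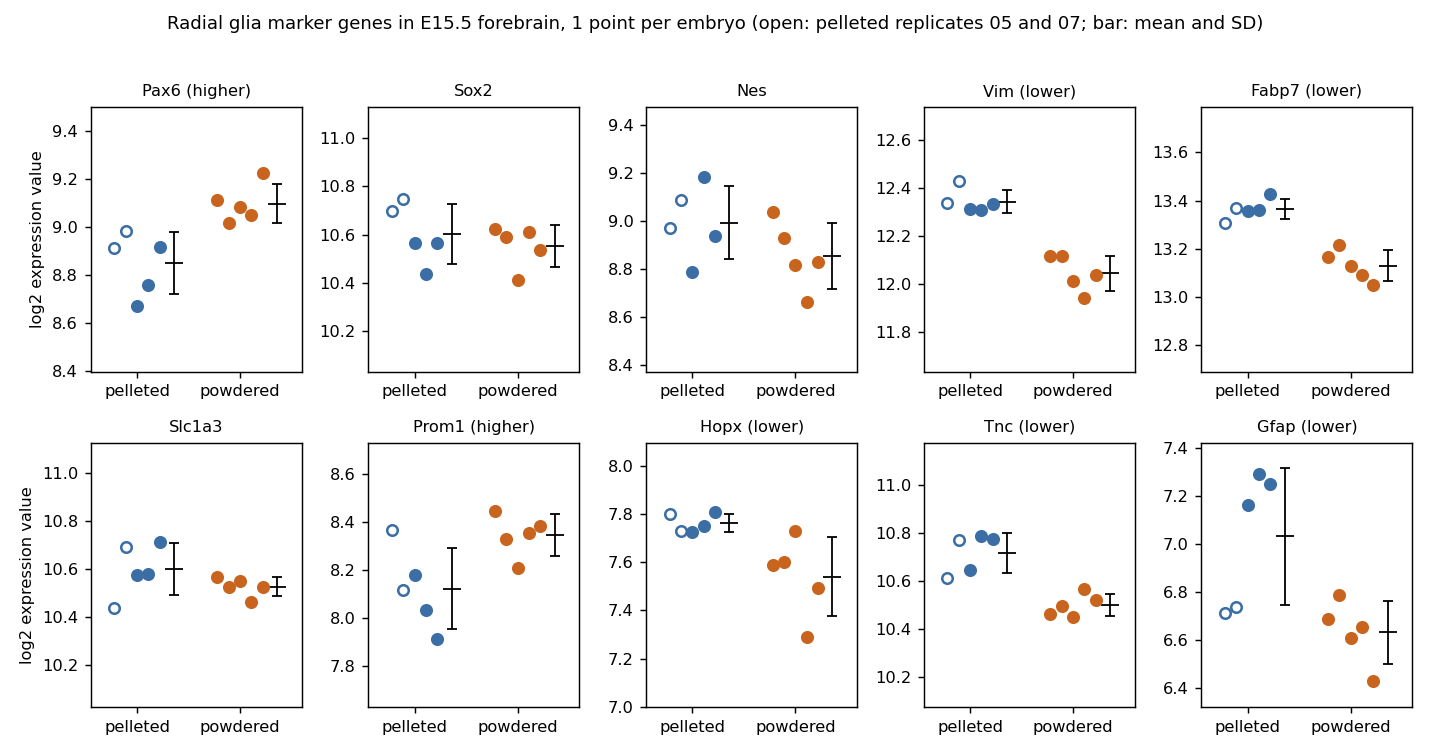
Log2 expression value of each radial glia marker gene in every embryo, on axes that all span the same log2 range, with pelleted chow in blue, powdered chow in orange and pelleted animals 05 and 07 as open circles. Bars give the mean and SD of 5 embryos. The diets are apart in Pax6, Vim, Fabp7 and Tnc, and the open circles lie with the powdered embryos in Gfap.

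Fabp7, the brain lipid binding protein of radial glia, was lower on powdered chow. The log2 values were 13.31, 13.37, 13.36, 13.36 and 13.43 on pelleted chow and 13.17, 13.21, 13.13, 13.09 and 13.05 on powdered chow. Every powdered embryo was below every pelleted one, with a gap of 0.09. The mean fell from 13.36 ± 0.04 to 13.13 ± 0.06 (SD, n = 5 each), a difference of -0.23 (SE 0.05), or 1.18-fold lower, with a limma adjusted p of 0.00228. Slc1a3, which takes up glutamate, gave 10.44, 10.69, 10.58, 10.58 and 10.71 on pelleted chow and 10.57, 10.53, 10.55, 10.47 and 10.53 on powdered chow. The powdered embryos were closely grouped, and pelleted animal 05 was the lowest of all. The Slc1a3 difference was -0.07 (95% interval -0.20 to 0.06) with a limma adjusted p of 0.351.

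Tnc, a matrix protein laid down in the germinal zones, was lower in every powdered embryo. The log2 values were 10.61, 10.77, 10.65, 10.79 and 10.78 on pelleted chow and 10.46, 10.50, 10.45, 10.57 and 10.52 on powdered chow. The gap between the diets was 0.04, set by pelleted animal 05 and powdered animal 111. The mean fell from 10.72 ± 0.08 to 10.50 ± 0.05 (SD, n = 5 each), a difference of -0.22 (SE 0.06), or 1.16-fold lower, with a limma adjusted p of 0.00585. Prom1, also known as CD133, gave 8.36, 8.11, 8.18, 8.03 and 7.91 on pelleted chow and 8.44, 8.33, 8.21, 8.35 and 8.38 on powdered chow. Pelleted animal 05 was above 3 of the powdered embryos, and the other 4 pelleted embryos were below all 5. The Prom1 difference was 0.22 (SE 0.08), 1.17-fold higher on powdered chow, with a limma adjusted p of 0.0377. That call was lost when any 1 of 8 embryos was left out (pelleted 07, 09, 11 or 15, powdered 87, 88, 111 or 115). Without pelleted animal 15 the limma adjusted p was 0.0984. It was also lost under the methods' t-test (adjusted p = 0.0692) and under quantile normalization (adjusted p = 0.0692 by limma).

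Hopx gave 7.80, 7.73, 7.73, 7.75 and 7.81 on pelleted chow and 7.59, 7.60, 7.73, 7.29 and 7.49 on powdered chow. The pelleted embryos were closely grouped, and powdered animal 108 alone reached their level. The Hopx difference was -0.22 (SE 0.07), 1.17-fold lower on powdered chow, with a limma adjusted p of 0.0258. The call was lost without pelleted animal 15 (adjusted p = 0.0582 by limma), without powdered animal 115 (0.0575) and without animals 05 and 07 (0.0721). Hopx was below the median of its array on all 10 arrays, while the 8 markers other than Hopx and Gfap were above it on all 10.

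Within a diet the embryos did not order the same way for every marker. Pelleted animals 05 and 07, a pair that earlier results of these data had set apart from the other pelleted embryos, were averaged and set against the mean of the other 3. The mean of the pair was higher by 0.16 in Pax6, by 0.20 in Sox2 and by 0.20 in Prom1, the last of these carried by animal 05 (8.36, against 8.11 in animal 07). In Gfap the difference of the means was -0.51, and in the other 6 markers it was 0.07 or less in either direction, with the values of the 2 animals on opposite sides of the other embryos' mean in Slc1a3, Hopx and Tnc. Leaving out the pair moves each difference in a direction that the pair's own values fix, so the values without it are a description. The diets then did not overlap in 7 of 10 markers, with Slc1a3, Prom1 and Gfap added to the former 4, and in 41.3% of all probe sets, against 32.6% with all arrays. Nes spread by about the same amount in both diets, with SDs of 0.15 and 0.14, and the spread of Vim and Fabp7 was between 0.04 and 0.07.

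**Figure D3:**
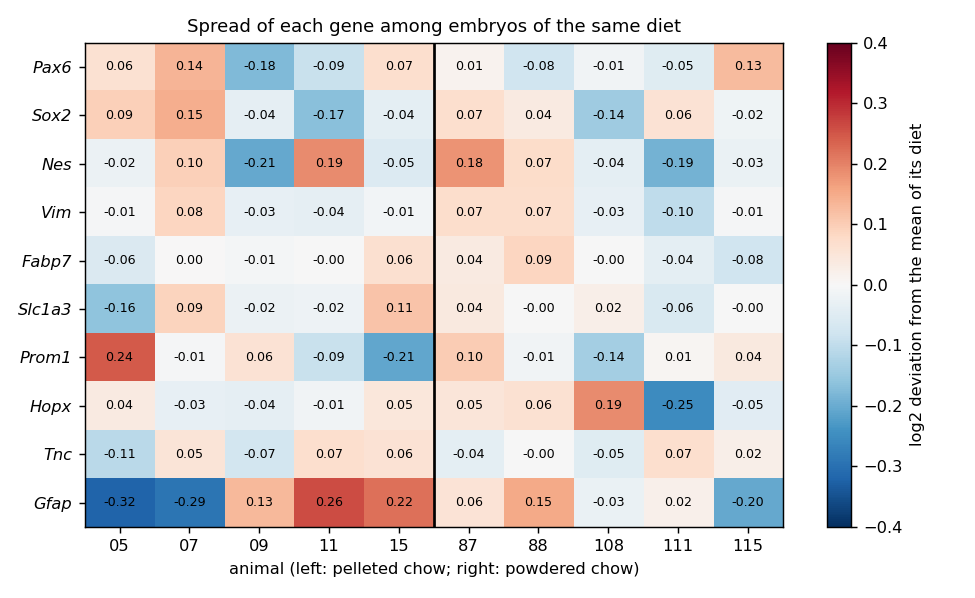
Deviation of each embryo's log2 value from the mean of its diet, for the 10 markers (rows) and 10 animals (columns, with pelleted chow left of the line). Red is above and blue below the diet mean. Animals 05 and 07 are low in Gfap, and animal 111 is low in Hopx, Nes and Vim.

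The relatives of each marker, which share its protein family, moved to different degrees. Counts of calls in this and the later lists are to be read against 21.2% of all probe sets higher and 21.8% lower. Of the 10 cytoskeletal intermediate filament genes, 1 was higher and 4 lower at the same threshold, with a median difference of -0.17. Nefm, a neurofilament subunit of neurons, was higher by 0.31 (limma adjusted p = 0.00467), with powdered values of 9.33 to 9.49 against 8.85 to 9.26. Synm, which encodes synemin, a partner of vimentin and desmin, was lower by -0.26 on the log2 scale (adjusted p = 0.00497 by limma), and Des, the desmin of muscle and pericytes, by -0.25 (limma adjusted p = 0.0105). Des was dim, with powdered values of 6.24 to 6.48, where the lower quartile of an array was 6.33 to 6.53. The other neuronal filaments were not called, with differences of -0.20 for Nefl, 0.11 for Ina, -0.12 for Nefh and 0.02 for Prph.

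Among 9 fatty acid binding proteins, Fabp7 and Fabp5 were called, in opposite directions. Fabp5, the epidermal type found in neurons and glia, was higher by 1.14 on powdered chow (limma adjusted p = 2.67e-07). Its log2 values were 7.70, 7.68, 7.49, 7.35 and 7.73 on pelleted chow and 8.87, 8.77, 8.66, 8.76 and 8.61 on powdered chow. The diets were far apart in Fabp5, and the difference passed the limits of the methods. Pmp2, the fatty acid binding protein of myelin, was at 0.13 and Fabp6 at 0.08, both not called. The 7 genes of this family that were not called had diet means of at most 5.61, below the lower quartile of every array (6.33 or more). Whether so dim a signal could show a difference was not tested.

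Of the 5 SoxB factors, the group to which Sox2 belongs, 0 were higher and 2 lower. Sox1, like Sox2 a progenitor factor, was lower by -0.27 (limma adjusted p = 0.00578), with every powdered embryo below every pelleted one. Sox21 was at -0.21 (limma adjusted p = 0.0210), and neither Sox14 (-0.38, adjusted p = 0.0628 by limma) nor Sox3 (-0.08) was called. Of 9 Pax factors, Pax6 alone was higher (2 were under quantile normalization or cyclic loess), while Pax1 (-0.23) and Pax8 (-0.17), which are best known outside the forebrain, were lower and Pax3 (0.16) was not called.

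Of the 7 SLC1 transporters of glutamate and neutral amino acids, 5 were lower and 0 higher, and Slc1a3 was not among them. Slc1a4, which carries neutral amino acids such as serine, was lower by -0.83 (limma adjusted p = 7.38e-04). Its pelleted values ran from 9.94 to 10.85, with animals 05 and 07 the lowest at 9.94 and 10.25, and its powdered values from 9.55 to 9.84. Slc1a1, the neuronal glutamate transporter, was lower by -0.50 (limma adjusted p = 1.89e-04) and Slc1a7 by -0.25 (limma adjusted p = 0.00827). Of 4 tenascins, Tnc and Tnr were lower. Tnr, made by oligodendrocyte lineage cells and some neurons, was at -0.29 (limma adjusted p = 0.00662), and Tnn (-0.14) and Tnxb (-0.06) were not called. Tnn and Tnxb were dim, with diet means of 6.34 to 6.48, where the lower quartile of an array was 6.33 to 6.53. Prom2, the only other prominin, was at -0.03 and not called. Of 15 genes for ligands and receptors that bind tenascin-C or lie beside it in the matrix, 3 were higher (5 under cyclic loess) and 2 lower. Integrin subunit Itgb1 was higher by 0.51 and the proteoglycan Vcan by 0.42, while Bcan, a proteoglycan of glia, was lower by -0.91.

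**Figure D4:**
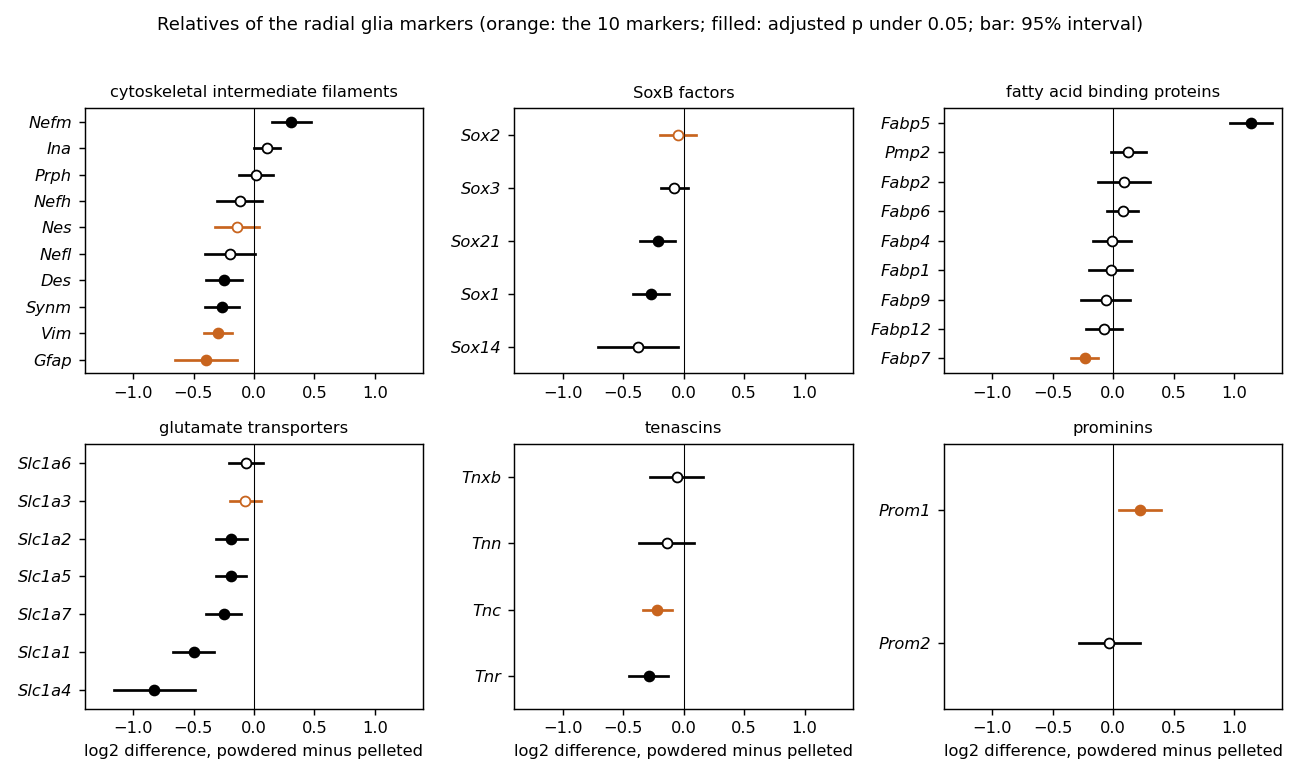
Log2 difference, powdered minus pelleted chow, with 95% interval from limma, of each measured gene in 6 protein families, with the radial glia markers in orange and genes with an adjusted p under 0.05 filled. Fabp5 lies at 1.14 and Fabp7 at -0.23, and 5 of the 7 transporters are filled and left of 0.

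A wider list of 30 further radial glia genes held none of the 10 markers. Some of its genes, such as Hes6, also stood in lists of other cells given below. Its calls went both ways too. In it 7 were higher (23.3%) and 12 lower (40%), against 21.2% and 21.8% of all probe sets, with a median difference of -0.08. Together with the markers this made 9 higher, 17 lower and 14 not called of 40. The 3 lowest p-values were all of genes lower on powdered chow. Ttyh1, a membrane protein of neural stem cells, was lower by -0.75, with powdered values of 10.24 to 10.42 against 10.98 to 11.27. Mfge8, a secreted bridging protein, was at -0.53 and Ddah1, an enzyme that breaks down methylated arginine, at -0.48. Their limma adjusted p-values were between 1.83e-06 and 2.93e-05. Outside the rule for naming and after their values were seen, the Notch target Hes5 (-0.50) and the transcription factor gene Nr2e1 (0.39) are given to show both directions.

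Of 10 genes listed for outer radial glia, a progenitor type away from the ventricle, 1 was higher and 2 lower, and 5 were lower without animals 05 and 07, where 19.6% of all probe sets were higher and 20.2% lower. Moxd1 was at -0.49, the small heat shock protein Cryab at -0.91 and the cytokine receptor Lifr at 0.26. Of 14 astrocyte genes, 2 were higher and 7 lower, with a median of -0.18. Cst3, which encodes cystatin C, was at -1.18 and the folate enzyme Aldh1l1 at -0.69, whereas Nfib, a transcription factor that promotes gliogenesis, was at 0.75. The mean log2 value of the astrocyte list was 9.88 to 10.10 on pelleted chow and 9.73 to 9.82 on powdered chow. Its lowest pelleted means were those of animals 05 (9.88) and 07 (10.04), the pair also low in Gfap. The part of the astrocyte list in the lower Fabp7, Tnc, Hopx and Gfap was not tested. Of 17 genes of the adherens junctions and apical polarity that hold radial glia at the ventricle, 9 were higher and 4 lower, with a median of 0.18. Pard3, a polarity gene, was higher by 0.53 and the alpha-catenin gene Ctnna1 by 0.45. The 4 lower genes, given outside the rule for naming, were Numbl (-0.39), Crb2 (-0.23), Prkcz (-0.18) and Cdc42 (-0.16).

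**Figure D5:**
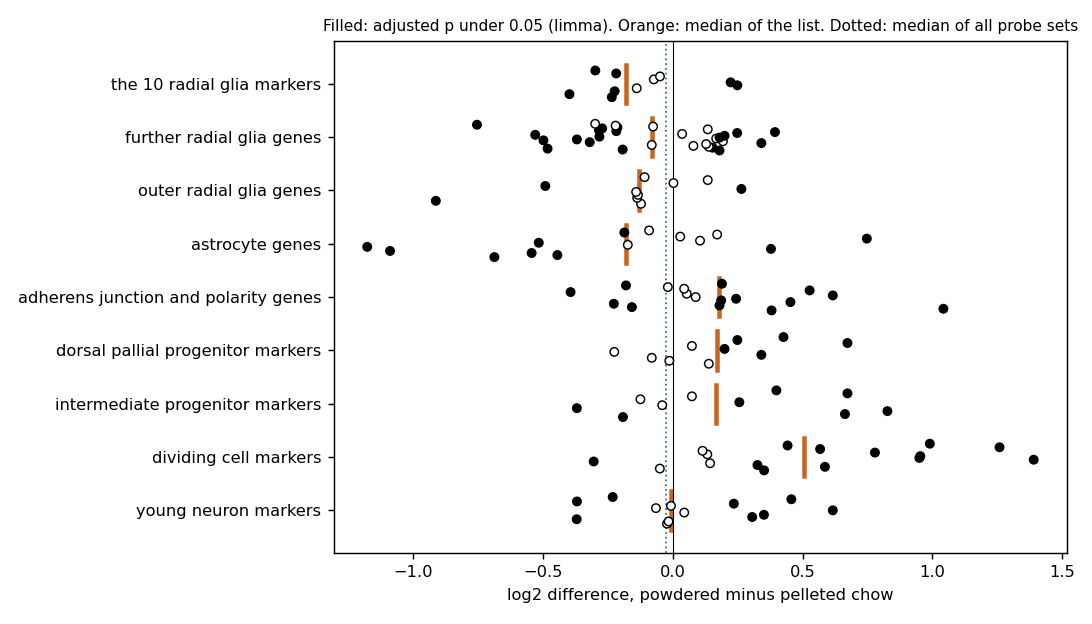
Log2 difference, powdered minus pelleted chow, of every measured gene in the 10 radial glia markers and 8 lists of related cells and structures. Filled points have a limma adjusted p under 0.05, orange bars are list medians and the dotted line is the median of all probe sets. The medians lie at -0.18 for the markers and at 0.51 for dividing cell markers.

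Progenitor and neuron lists were counted beside the markers, and some of their genes stood in several lists. The dorsal pallial progenitor list holds Pax6 and shares Emx2, Lhx2, Gli3 and Dmrta2 with the wider radial glia list. It shares Neurog1 and Neurog2 with the intermediate progenitors, so its counts are not separate from theirs. Of its 10 markers 5 were higher and 0 lower (1 lower under quantile normalization), with a median of 0.17. The 5 include Pax6, Lhx2 and Gli3, already counted above. Neurog2, which drives cortical neurogenesis, was higher by 0.67 and Wnt8b by 0.43. Of 9 ventral progenitor markers 2 were higher and 0 lower (again 1 under quantile normalization), with Isl1 at 0.46 and Dlx1 at 0.24. The share higher, 22.2%, was about that of all probe sets (21.2%). Of 10 intermediate progenitor markers 5 were higher and 2 lower, with Eomes, their defining factor, at 0.66 and Gadd45g at 0.83. The 2 lower genes, given outside the rule for naming, were Hes6 (-0.37), also in the wider radial glia list, and Btg2 (-0.19). Of 13 young neuron markers 5 were higher and 3 lower, with a median of -0.01, Neurod6 at 0.62, Tbr1 at 0.46 and Syt1 at -0.37.

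Dividing cell markers had the largest median of the 24 lists. Of 16, 11 were higher and 1 lower, with a median of 0.51, and Mki67, the antigen of cycling cells, was at 1.26, Cenpe, a kinetochore motor, at 1.39 and the replication helicase gene Mcm3 at 0.78. Their mean log2 value was 8.47 to 8.84 on pelleted chow and 9.05 to 9.23 on powdered chow, and the 2 highest pelleted means, 8.84 and 8.84, were those of animals 05 and 07, the 2 embryos highest in Sox2. Whether the difference in dividing cell markers had a part in that of Pax6 or Prom1 was not tested.

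Cells outside the neural lineage also express some of the markers. Of 10 meningeal fibroblast markers 6 were higher and 1 lower, with a list mean of 8.54 to 8.79 on pelleted and 8.87 to 9.05 on powdered chow, and Col3a1 was higher by 0.75. Vim, which these cells express strongly, was lower. Of 12 endothelial markers 3 were higher and 5 lower (mean 9.01 to 9.09 and 8.89 to 9.00), with Kdr at 0.68 and Esam at -0.87. Of 8 pericyte markers 3 were higher and 3 lower, of 9 microglia markers 2 and 4, of 7 oligodendrocyte precursor markers 1 and 4, and of 7 choroid plexus markers 1 and 3. Of 11 erythroid markers 3 were higher (27.3%, against 21.2% of all probe sets) and 0 lower, with Hbb-b1 higher by 1.62. Their mean was 6.95 to 7.52 on pelleted and 7.43 to 7.58 on powdered chow, with animals 05 and 07 again at the top of the pelleted range. Without these 2 animals 6 markers were higher, against 19.6% of all probe sets, and the animals' high erythroid values fix the direction of that move. The part of these lists in the results for Vim and the other markers was not tested. Of 5 forebrain markers, Dlx1, Tbr1, Neurod6 and Lhx2 had log2 values of 10.31 or more on all 10 arrays and Emx1 of 8.33 to 8.66, where the lower quartile of an array was at most 6.53.

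For each marker that was called, the probe sets with the most similar profile over the 10 arrays were sought among those with a gene symbol. The measure was the root mean square difference between log2 profiles, each centred on its own mean. The comparison is a description without a test, since the diet difference itself makes profiles alike. Nearest to Pax6 were Slc25a13 (0.0546) and Slc25a27 (0.0581), 2 mitochondrial carriers. Nearest to Vim were Plpp5 (0.0428) and Ptch1 (0.0441), the receptor of Sonic hedgehog. Fabp7 had the closest neighbours, Larp4b (0.0277) and the matrix protein gene Sparc (0.0313). Tnc was nearest to Edil3 (0.0389) and Commd10 (0.0442). Nearest to Prom1 were Notch2 (0.0709) and Id1 (0.0738), both known in neural stem cells, to Hopx Fam166c (0.0451) and Atoh1 (0.0454), and to Gfap Aars (0.0824) and Gnal (0.0913). The median difference from all other probe sets with a symbol lay between 0.187 and 0.310 for these markers.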

How the data were processed

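Forebrain RNA of 10 embryos was measured, 1 array each. RMA (robust multichip average) with the MBNI custom CDF version 15 was run by the authors, who deposited the log2 values of 21225 probe sets, 1 per Entrez gene. These log2 values were used without further normalization or filter. Levels of single genes were set only against the lower quartile or median of their array, and not against each other, since probe sets differ in brightness. The number of arrays, 5 per diet, limits the precision. Each array correlated with the rest of its group at a mean r of at least 0.992, and 0 pairs of arrays were identical. Symbols were available for 20239 probe sets.

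The diet effect, powdered minus pelleted chow, was fitted in limma without covariates (lmFit, then eBayes). The script was tested on simulated data. Named genes were the 10 markers, the 3 lowest p-values of each of 24 lists, every relative in the intermediate filament, SoxB and tenascin families, and the 2 most similar profiles of each called marker. The markers and lists were chosen with earlier results of these data known. Listed genes without a matched probe set were not analysed here. Not every gene that this rule selects is printed, and 1 junction and polarity gene is not reported here. Promoters came from RefSeq.

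The results were recomputed with the methods' t-test, Welch's test, array weights, a robust prior with an intensity trend, a test against a fold change of 1.5, quantile, median and cyclic loess normalization, filters on dim probe sets, and leaving out arrays. R 4.3.3, limma 3.58.1, Python 3.11.15 and matplotlib 3.10.9 were used.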

Additional observations from a re-analysis of the deposited data

Results flagged for a closer look

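Of 20 groups of 5 embryos (10 markers in 2 diets), 1 held a value far from the others. Vim in pelleted animal 07 was at 12.43, and the gap to its nearest neighbour was 0.745 of the range of the 5 embryos, above the critical value of 0.710. Chance flags about 1 in 20 such groups. The value lay on the side away from the powdered embryos.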

How the results depend on the processing

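No paired analysis was possible because the animal numbers are not shared between the diets. Pax6, Vim, Fabp7 and Tnc kept their direction and call under all 21 alternatives except the test against a fold change of 1.5, with limma or t-test adjusted p-values of at most 0.0304, 0.00440, 0.00835 and 0.0183. That test called 0 markers higher, 0 lower and 470 probe sets, against 2, 5 and 9146. Under the other alternatives the number of all probe sets called stayed within 1.5-fold of 9146. Markers higher numbered 1 under the methods' t-test, Welch's test, quantile normalization and median centring, and 1 to 2 when 1 array was left out, Prom1 being the one lost. Markers lower numbered 3 under Welch's test, where Hopx and Gfap were lost, and 3 among probe sets above the median, which leaves both out by construction. Leaving out 1 array gave 4 to 5 lower. Gfap had an adjusted p of 0.0526 under the methods' t-test and 0.0741 under Welch's test, and of at most 0.0433 when 1 array was left out. Without pelleted animals 05 and 07, 1 marker (Gfap) passed the limits of the methods, narrowly, at 1.52-fold against the limit of 1.5. The share of all probe sets past these limits was not counted there, so this count has no background to be read against. The diets then did not overlap in 7 markers, against 4, and in 41.3% of all probe sets, against 32.6%. The Sox2 difference was reversed at 0.031. Animals 05 and 07 held the lowest pelleted Gfap and the highest pelleted Sox2 values, which fixes the direction of the Gfap and Sox2 moves. Non-overlap held in 4 to 6 markers when 1 array was left out, 6 of them without pelleted animal 05, against 33.7% to 38.5% of all probe sets (37.4% without animal 05). Unless stated, the cause was not tested. The further normalizations moved the median of all probe sets from -0.0243 to -0.0173, -0.0319 and -0.00743. Gfap and Hopx lay below the median of every array, and whether dim signal had a part in their results was not tested.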
